A study of Mus musculus with 6 samples.

Results

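The stereocilia of cochlear hair cells (HCs) are held stiff by proteins that bundle and cap their actin filaments. Genes for such proteins and for others of the stereocilia, 10 in all, were followed in the cochlear duct: *Espn*, *Fscn1*, *Fscn2*, *Pls1*, *Pls3*, *Eps8*, *Eps8l2*, *Xirp2*, *Strc* and *Triobp*. They were chosen by name, as 10 of the 14865 genes listed in the deposited table, and each was found there once. RNA was taken on postnatal day 8 in 3 libraries of each genotype, from mice labelled C57BL/6, the Gfi1cre line being kept on C57BL/6J per the methods. Gfi1+/+ mice carry intact *Gfi1*, a transcriptional repressor that HCs need to differentiate and survive, and served as the controls. In Gfi1cre/+ mice 1 copy of *Gfi1* is replaced by the sequence for Cre recombinase, which is made where the *Gfi1* promoter is active. Recombination by it marks HCs and also cells whose lineage used the promoter earlier, such as macrophages. Each Gfi1+/+ library held 2 cochleae of 1 mouse and each Gfi1cre/+ library held 6 cochleae pooled from 3 mice, so that the spread between libraries is between single animals in one genotype and between pools in the other.

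A stereocilium is a finger of the HC surface filled with parallel actin filaments. Crosslinkers hold the filaments together along the shaft, capping and elongation factors at the tip set its length, and a dense rootlet anchors its base in the cell body. The bundle grows and matures around the first postnatal week in the mouse, and mutations in many of these genes cause deafness in mice or humans. By general knowledge the 10 genes were put into 3 classes. *Espn*, *Fscn2*, *Xirp2* and *Strc* formed the HC class, since within the cochlea they are known from HCs. *Pls1*, *Eps8* and *Eps8l2* are found in HCs and in other epithelia such as the brush border of the gut. *Fscn1*, *Pls3* and *Triobp* are made in many cell types, so that their reads in whole cochlear duct come from HCs and other cells together.

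The values are normalized reads, that is, reads counted on a gene divided by 1 size factor per library. Values of single libraries are listed in the order of replicates 1 to 3. Between 13603908 and 19359753 reads per library were recovered on genes. All 10 genes reached the minimum of 40 normalized reads in at least 1 library that was set for testing, as did 14455 of all listed genes. HC markers outside the 10 genes were present, and 19 of 21 were analysed here, with summed levels of 10019 to 11032 normalized reads in Gfi1+/+ and 9549 to 9926 in Gfi1cre/+. *Gfi1* itself had 147 to 160.2 normalized reads in Gfi1+/+ and 129.6 to 139 in Gfi1cre/+ (log2 fold change -0.18 with standard error 0.0975, limma, Benjamini-Hochberg adjusted p = 0.999). Its reads are a single count over all exons. The study states that Cre replaces only some of these exons and that the remaining transcript still adds reads. This count therefore does not measure intact *Gfi1* RNA. By RT-qPCR of newborn cochleae the study found the replaced exons reduced. Gfi1+/+ replicate 1 stood apart from the other libraries on the first principal component, at -44.0 against -0.304 to 16.2, and its neuron markers summed to 11378 normalized reads against 2871 to 4858 elsewhere. All 12 neuron markers had a log2 fold change below 0 (median -0.83), beside 50.1% of all genes tested. Of these 12, 5 had an unadjusted p-value under 0.05 by limma, where 2.02% of all genes tested were lower at that threshold. Of 10 erythroid markers 9 were higher in Gfi1cre/+ at an unadjusted p-value under 0.05 by limma, against 1.02% of all genes tested. The part of neurons and red blood cells in the values of the 10 genes was not tested. Reads of 4 Y-linked genes summed to at most 2.10 in each Gfi1+/+ library and to between 794 and 1621 in Gfi1cre/+, while *Xist*, made from the inactive X of females, had 7338 to 8138 normalized reads in Gfi1+/+ and 2301 to 5359 in Gfi1cre/+. The Gfi1cre/+ pools thus held RNA of both sexes, and the sex makeup of the libraries and the genotype cannot be told apart.

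Per kilobase, the widely expressed genes were the most abundant of the 10 and the HC class the least. The scale here is normalized reads per kilobase of the longest protein-coding transcript, averaged over the 6 libraries. *Fscn1* had 1112 ± 66.4 per kilobase (SD, n = 6), *Pls3* 571 ± 35.5 and *Triobp* 367 ± 10.5. *Eps8l2* followed with 182 ± 9.45. Next came *Pls1* with 115 ± 9.63, *Eps8* with 107 ± 5.16, *Strc* with 89.8 ± 11.3 and *Espn* with 74.1 ± 6.15. *Fscn2* had 44.9 ± 6.65 and *Xirp2* 3.28 ± 0.867. Over all libraries the ranges of *Pls1* and *Eps8*, of *Eps8* and *Strc*, and of *Strc* and *Espn* overlapped, and in each of these 3 pairs the first gene was higher in 5 of 6 libraries. All other neighbours in this order were apart in all 6 libraries. Among the 14393 tested genes with a length, *Fscn1* lay at percentile 92.6, *Eps8l2* at 54.7, *Espn* at 29.9 and *Xirp2* at 0.125. The order depends on the length used. With the union of all annotated exons, *Eps8* fell from 107 to 39.5 per kilobase and below *Strc*, at 83.0, and *Espn*, at 41.4, and *Eps8l2*, at 108, came level with *Pls1*, at 109.

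**Figure D1:**
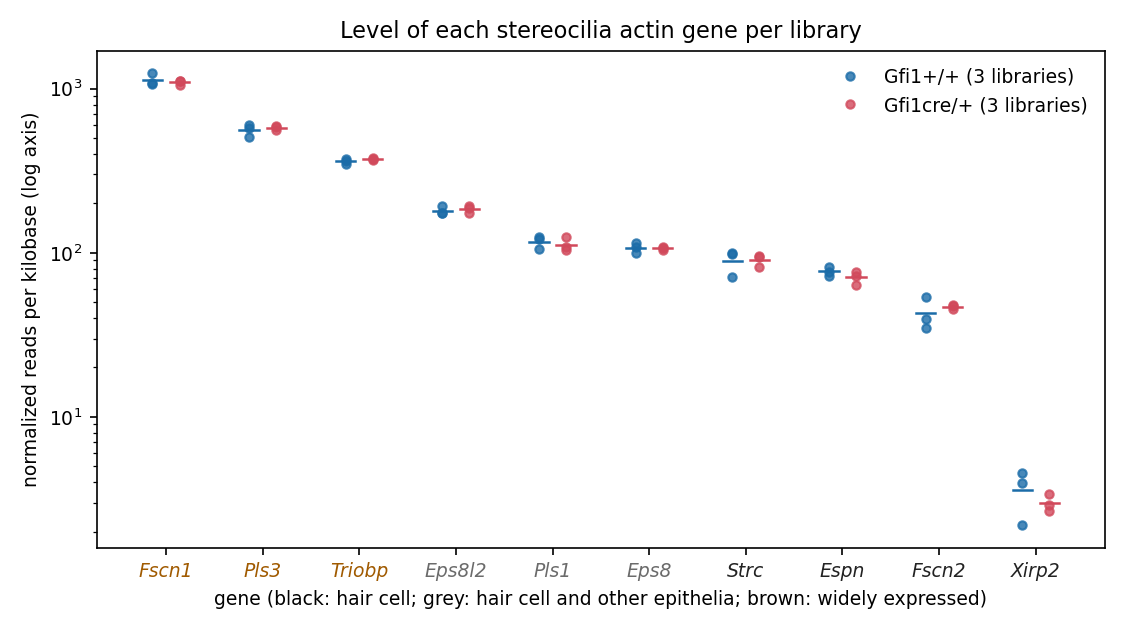
Normalized reads per kilobase of the longest protein-coding transcript (log axis) for each gene. Points are single libraries, 3 of Gfi1+/+ and 3 of Gfi1cre/+, and short lines are their means. *Fscn1* sits near 1112 and *Xirp2* near 3.28 per kilobase, and in every gene the points of the genotypes overlap.

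No difference between the genotypes passed the test in any of the 10 genes. In each of them the 3 Gfi1cre/+ libraries overlapped with the 3 Gfi1+/+ libraries, where the ranges did not overlap in 7.52% of all genes tested. None had p under 0.05 in limma before adjustment, against 3.04% of all genes (1.02% higher and 2.02% lower in Gfi1cre/+), none had this together with a fold change above 2, against 0.47%, and none had a Benjamini-Hochberg adjusted p-value under 0.05, against 0.0277%. The adjusted p-value was 0.999 for every one of the 10 (limma, two-sided, on log2 of normalized reads + 1). The log2 fold changes, Gfi1cre/+ against Gfi1+/+, were below 0 in 5 of the 10, beside 50.1% of all genes, and ran from -0.19 in *Xirp2* to 0.16 in *Fscn2*. The 95% limma intervals of all 10 fold changes together spanned 0.550 to 1.48, so a factor of 2 lay outside each of these intervals. In limma the variance of a gene is drawn towards that of other genes and is shared by both genotypes. For *Xirp2*, on 25 to 46 reads per library, the log2 SD was 0.545 in Gfi1+/+ and 0.172 in Gfi1cre/+. Intervals from the spread of each gene alone were not computed and could be wider. Leaving out Gfi1+/+ replicate 1 gave log2 fold changes from -0.08 to 0.12. Since whole ducts were sequenced, fewer HCs and less RNA per HC cannot be told apart here.

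**Figure D2:**
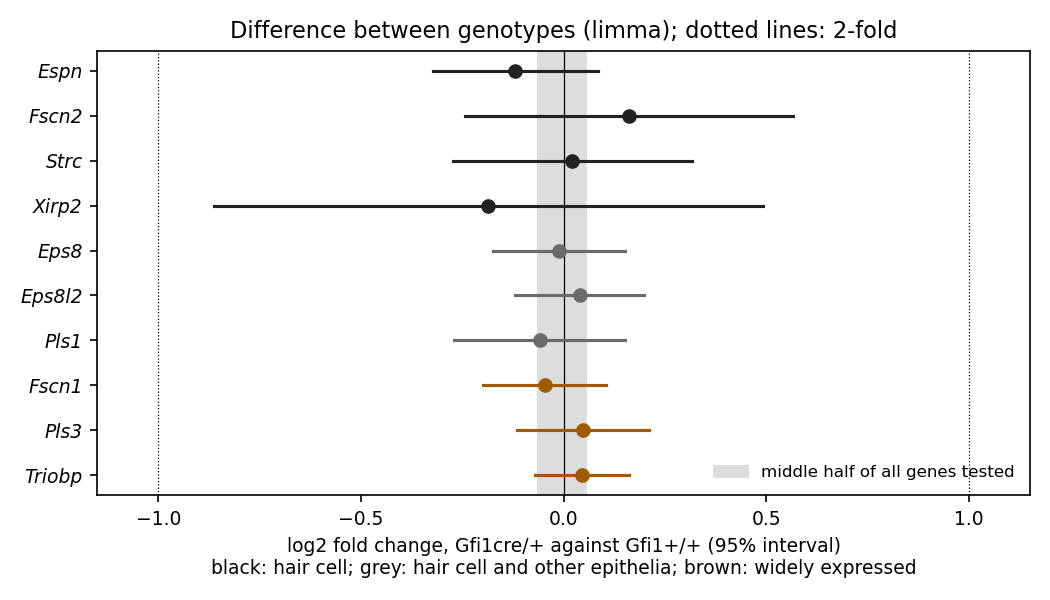
Log2 fold change of each gene, Gfi1cre/+ against Gfi1+/+, with its 95% interval from limma. The shaded band holds the log2 fold changes between the quartiles of the 14455 genes tested (-0.06 to 0.05) and dotted lines mark a factor of 2. All 10 intervals cross 0, the widest being that of *Xirp2* (-0.86 to 0.49).

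Espin, the product of *Espn*, is an actin crosslinker that lengthens stereocilia, and its loss is known to cause deafness in the jerker mouse. *Espn* (ENSMUSG00000028943) lies on the minus strand of chromosome 4, from 152120331 to 152152371 of GRCm38. It stood at 380.2, 334 and 354.4 normalized reads in Gfi1+/+ and at 354.2, 295.6 and 335 in Gfi1cre/+ replicates 1, 2 and 3. The lowest value was in Gfi1cre/+ replicate 2 and the highest in Gfi1+/+ replicate 1, and the genotypes overlapped. The means were 356 ± 23.1 in Gfi1+/+ and 328 ± 29.9 in Gfi1cre/+ (SD, n = 3), with a log2 fold change of -0.12 (standard error 0.0900, 95% interval -0.32 to 0.08). It was -0.046 without Gfi1cre/+ replicate 2, -0.072 without Gfi1+/+ replicate 1 and -0.18 without Gfi1cre/+ replicate 1. Its unadjusted limma p of 0.217 was the lowest of the 10 genes. GENCODE lists 20 transcripts of *Espn*, and the single count per gene does not separate them.

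Promoter windows, from 250 bases before to 50 bases after a transcript start, were searched on both strands for the letters AAATCA, taken from the site that GFI1 binds, and CAGCTG, an E-box of the kind bound by ATOH1, the factor that starts HC fate. RefSeq windows (GRCm38.p6) were found for 9 of the 10 genes, *Eps8* being the other. AAATCA stood in none of their 14 windows, where 4598 of 32851 windows of all genes held it. CAGCTG stood in 3 of the 14 windows of these genes, from *Espn* and *Pls3*, that is 2 of 9 genes, where 16.3% of all windows and 18.3% of all genes held it. A pair of *Espn* windows is shown because *Espn* was the one HC class gene with a match, with CAGCTG in capitals. The first is chr4:152152340-152152639 and the second chr4:152128876-152129175, both on the minus strand and written 5′ to 3′. In the first the match starts at position -201 from the transcript start, and in the second the matches start at -126 and -78. These are matches of letters, and binding was not measured.
Espn upstream start: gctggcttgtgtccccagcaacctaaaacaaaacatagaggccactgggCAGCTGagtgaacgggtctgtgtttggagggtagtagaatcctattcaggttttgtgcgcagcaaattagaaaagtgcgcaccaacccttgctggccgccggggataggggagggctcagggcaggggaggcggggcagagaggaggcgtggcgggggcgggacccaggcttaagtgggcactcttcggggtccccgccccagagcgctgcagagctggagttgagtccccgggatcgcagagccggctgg
Espn internal start: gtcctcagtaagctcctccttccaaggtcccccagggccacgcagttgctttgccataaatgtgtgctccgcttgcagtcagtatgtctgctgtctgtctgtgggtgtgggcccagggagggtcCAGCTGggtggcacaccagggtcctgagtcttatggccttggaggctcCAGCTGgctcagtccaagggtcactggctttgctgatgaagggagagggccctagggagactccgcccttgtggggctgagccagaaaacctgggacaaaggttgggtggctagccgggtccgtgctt

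Fascin 2, the product of *Fscn2*, crosslinks actin in the taller stereocilia and is otherwise best known from photoreceptors. *Fscn2* (ENSMUSG00000025380) lies on the plus strand of chromosome 11, from 120361534 to 120368168. It stood at 67.9, 59.7 and 91.8 normalized reads in Gfi1+/+ and at 80.9, 82.55 and 78.3 in Gfi1cre/+. The Gfi1cre/+ libraries lay close together and inside the range of the Gfi1+/+ libraries. The means were 73.1 ± 16.7 and 80.6 ± 2.14 (SD, n = 3), with a log2 fold change of 0.16 (standard error 0.179, 95% interval -0.24 to 0.57). Single libraries moved it, to 0.029 without Gfi1+/+ replicate 2 and 0.34 without Gfi1+/+ replicate 3. These values rest on 55 to 93 reads per library, for which counting alone gives a coefficient of variation of 12.3% in Gfi1+/+, where 22.8% was measured.

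The XIRP2 protein binds actin filaments in HCs and in striated muscle. *Xirp2* (ENSMUSG00000027022) lies on the plus strand of chromosome 2, from 67446002 to 67526614. It stood at 54.3, 26.2 and 47.5 normalized reads in Gfi1+/+ and at 34.8, 40.8 and 32.1 in Gfi1cre/+. Only 3 of the 6 libraries reached 40. The highest and the lowest value were both from Gfi1+/+ mice, so that all Gfi1cre/+ libraries lay between them. The means were 42.7 ± 14.7 and 35.9 ± 4.48 (SD, n = 3), and the log2 fold change was -0.19 (standard error 0.299, 95% interval -0.86 to 0.49). It rests on 25 to 46 reads per library, and single libraries decided it, with 0.017 without Gfi1+/+ replicate 1 and -0.50 without Gfi1+/+ replicate 2. Of 20 skeletal muscle markers only 6 were among the listed genes, and 3 reached the minimum for testing. The summed level of the 6 was 560.1 to 699 normalized reads in Gfi1+/+ and 628 to 651 in Gfi1cre/+. Most of it was *Des*, an intermediate filament gene of muscle and of vessel walls, whereas *Myh8*, a myosin of developing muscle fibres, had 6.28 to 11.3. Their part in the *Xirp2* values was not tested.

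Stereocilin, the product of *Strc*, links the tips of neighbouring stereocilia of outer HCs and attaches the tallest row to the tectorial membrane. *Strc* (ENSMUSG00000033498) lies on the minus strand of chromosome 2, from 121363728 to 121387168. It stood at 564, 407 and 576 normalized reads in Gfi1+/+ and at 547, 469.6 and 539 in Gfi1cre/+. Gfi1+/+ replicate 2 was the lowest of the 6, and the other Gfi1+/+ libraries were the highest. The means were 516 ± 94.1 and 518 ± 42.4 (SD, n = 3), with a log2 fold change of 0.02 (standard error 0.131, 95% interval -0.27 to 0.32). Without Gfi1+/+ replicate 2 it was -0.14. The coefficient of variation in Gfi1+/+ was 18.25%, and 4.64% would follow from counting alone. *Strc* shares 10 exon bases with *Ckmt1* on the opposite strand.

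The libraries that were low in *Strc* were compared with HC markers that were picked for display after their values had been seen. *Slc26a5*, which encodes prestin, the motor protein of outer HCs, stood at 386, 267 and 343 normalized reads in Gfi1+/+ and at 324, 281 and 300.0 in Gfi1cre/+. *Ocm*, the calcium buffer oncomodulin of outer HCs, had 2365, 1673 and 2644 in Gfi1+/+ and 1910, 1743 and 2029 in Gfi1cre/+. Both were lowest in Gfi1+/+ replicate 2, like *Strc*, *Xirp2* and *Fscn2*. *Otof*, the calcium sensor otoferlin of HC synapses, was highest in that library, at 1832, and lay between 1467 and 1650 in the other 5. *Myo7a*, a myosin of all HCs, had 669 there, inside its range of 601 to 769. Over the 19 HC markers, 3 were lowest in Gfi1+/+ replicate 2, and Pearson's r with *Strc* over the 6 libraries ran from -0.62 for *Rasd2* to 0.84 for *Slc26a5*, given as a description of 6 libraries that share tissue and normalization.

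**Figure D3:**
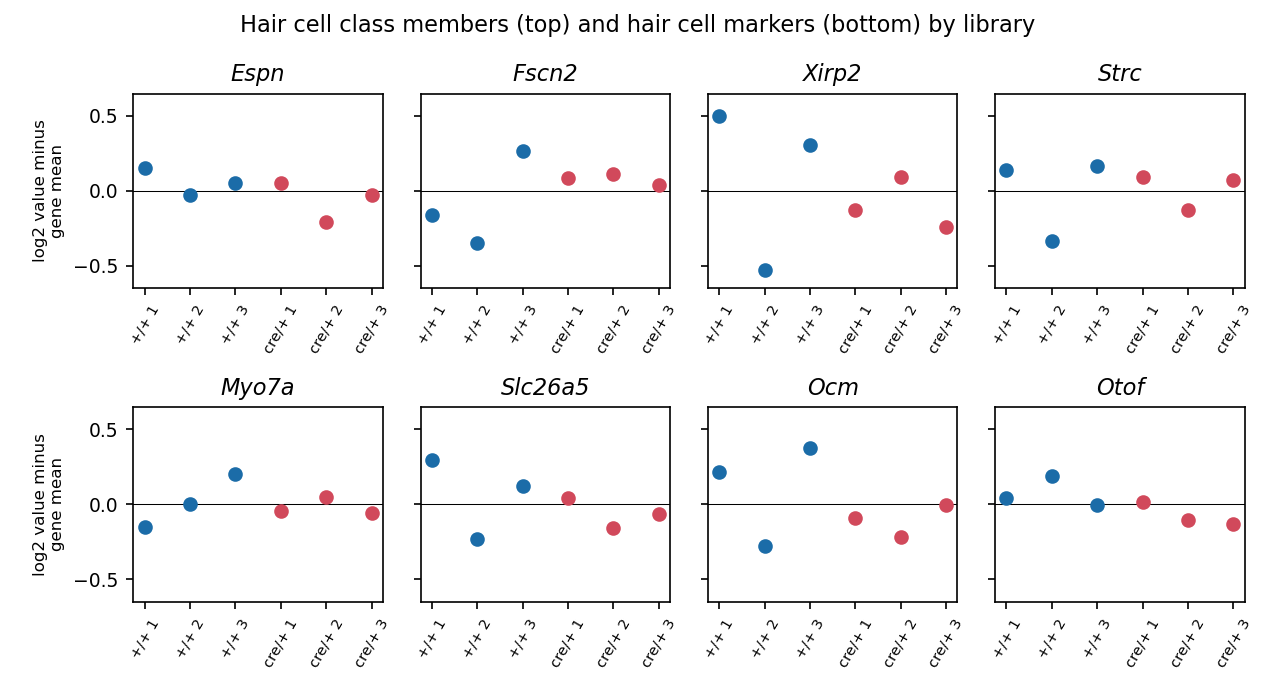
Log2(normalized reads + 1) of each library minus the mean of the 6 libraries, for the 4 HC class genes (top) and 4 HC markers (bottom), with Gfi1+/+ in blue and Gfi1cre/+ in red. Gfi1+/+ replicate 2 is the lowest point for *Fscn2*, *Xirp2*, *Strc*, *Slc26a5* and *Ocm*, whereas it is the highest for *Otof*.

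The second class holds genes of HCs and other epithelia. Plastin 1, the product of *Pls1*, is a crosslinker of stereocilia and of the gut brush border. *Pls1* (ENSMUSG00000049493, minus strand of chromosome 9, from 95752642 to 95845311) stood at 459, 449 and 390.3 normalized reads in Gfi1+/+ and at 386, 461 and 401 in Gfi1cre/+. Each genotype held high and low libraries, and the log2 fold change was -0.06 (standard error 0.0934, 95% interval -0.27 to 0.15). EPS8 caps and bundles actin at stereocilia tips, and mice without it have short stereocilia. *Eps8* (ENSMUSG00000015766, minus strand of chromosome 6, from 137477245 to 137654876) had 492.5, 525 and 455 in Gfi1+/+ and 487, 498 and 474 in Gfi1cre/+. All Gfi1cre/+ libraries lay inside the Gfi1+/+ range, and the log2 fold change was -0.01 (standard error 0.0718, 95% interval -0.17 to 0.15). EPS8L2, a relative of EPS8, is needed to maintain stereocilia. *Eps8l2* (ENSMUSG00000025504, plus strand of chromosome 7, from 141338880 to 141363020) had 555, 554 and 613 in Gfi1+/+ and 615, 556 and 599 in Gfi1cre/+, with a log2 fold change of 0.04 (standard error 0.0706, 95% interval -0.12 to 0.20). Its exons share 1729 bases with *B230206H07Rik* on the opposite strand. That gene had 8.70 to 31.6 normalized reads, and since the strand setting of the counting is not given in the sources used here, reads of the overlap cannot be assigned.

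The third class holds the widely expressed genes. *Fscn1* encodes fascin 1, a crosslinker of filopodia. *Fscn1* (ENSMUSG00000029581, plus strand of chromosome 5, from 142960343 to 142973185) stood at 2886, 2876 and 3317 normalized reads in Gfi1+/+ and at 2823, 2974 and 2974 in Gfi1cre/+. Gfi1+/+ replicate 3 was the highest, and without it the log2 fold change of -0.05 (standard error 0.0674, 95% interval -0.20 to 0.11) was 0.021. TRIOBP bundles the actin of the rootlets, through isoforms that the count does not separate among the 12 listed transcripts. *Triobp* (ENSMUSG00000033088, plus strand of chromosome 15, from 78947724 to 79005869) had 2562, 2648 and 2736 in Gfi1+/+ and 2688, 2746 and 2768 in Gfi1cre/+. It was highest in a pair of Gfi1cre/+ libraries, and its interval was the narrowest of the 10, with a log2 fold change of 0.05 (standard error 0.0512, 95% interval -0.07 to 0.16).

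Plastin 3, the product of *Pls3*, is a crosslinker of many tissues and the one X-linked gene of the 10. *Pls3* (ENSMUSG00000016382, minus strand of chromosome X, from 75785654 to 75875182) stood at 1956, 1871 and 1635 normalized reads in Gfi1+/+ and at 1920.0, 1819 and 1897 in Gfi1cre/+. Gfi1+/+ replicate 3 was the lowest, and the other 5 libraries lay between 1819 and 1956. The log2 fold change was 0.05 (standard error 0.0720, 95% interval -0.11 to 0.21) and -0.027 without Gfi1+/+ replicate 3. Of 493 X-linked genes tested, 309 had a log2 fold change below 0, beside 50.1% of all genes tested, and the X-linked median was -0.03.

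The classes themselves lay near 0. The median log2 fold change was -0.05 over the 4 HC class genes (from -0.19 to 0.16), -0.01 over the 3 genes of HCs and other epithelia and 0.05 over the 3 widely expressed genes, beside 0.00 over all genes tested. The HC class median rested on single libraries, at -0.15 without Gfi1+/+ replicate 2, 0.056 without Gfi1+/+ replicate 1, 0.016 without Gfi1+/+ replicate 3 and 0.022 without Gfi1cre/+ replicate 2. Over the 19 HC markers the median was -0.11, and 18 of them were below 0, beside 50.1% of all genes tested. None of the 19 had p under 0.05 in limma before adjustment, and 4 had genotypes that did not overlap, beside 7.52% of all genes. *Gfi1* is 1 of these 4. Among the 4 HC class genes, 2 were below 0. The difference between the HC class and the markers was not tested.

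The spread between libraries was smaller in the pooled Gfi1cre/+ libraries for 8 of the 10 genes, *Espn* and *Pls1* being the exceptions. On the log2 scale the SD in Gfi1+/+ ran from 0.0473 in *Triobp* to 0.545 in *Xirp2*, with 0.280 in *Strc*, and that in Gfi1cre/+ from 0.0218 in *Triobp* to 0.172 in *Xirp2*. The median over all genes tested was 0.119 in Gfi1+/+ and 0.0737 in Gfi1cre/+. In Gfi1+/+ all 10 genes varied more than counting alone gives, and in Gfi1cre/+ 6 of the 10 did. The share over all genes was not computed, so these counts do not set the 10 genes apart.

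*Myo7a* was used by the study as the reference for HC number in its own RT-qPCR, so the 10 genes were also taken relative to it in each library. The difference between genotypes in log2(gene + 1) minus log2(*Myo7a* + 1) then ran from -0.15 in *Xirp2* to 0.20 in *Fscn2*. *Fscn2* was -3.13, -3.46 and -3.053 on this scale in Gfi1+/+ and -2.98, -3.049 and -3.02 in Gfi1cre/+. The Gfi1cre/+ libraries were all higher by this measure (p = 0.1 in a two-sided exact permutation test, which cannot go lower with 3 against 3), as were 4.48% of all genes. The nearest libraries of the genotypes, at -3.053 and -3.049, were all but level, on 87 and 93 reads. The other 9 genes overlapped between genotypes, so 1 of 10 was apart, where 5.13% of all genes were apart in either direction. Relative to *Myo7a*, the range over the Gfi1+/+ libraries became wider in 8 of the 10 genes, *Fscn1* and *Fscn2* being the exceptions. *Myo7a* itself ran from 601 to 769 normalized reads in these libraries. The share over all genes was not computed, so this count does not set the 10 genes apart.

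Within 3 families a pair of paralogues was compared in each library, on the scale of reads per kilobase. The fascin and plastin pairs set a narrower against a wider paralogue, whereas *Eps8l2* and *Eps8* are of the same class. *Fscn2* was at 0.0367, 0.0324 and 0.0432 of *Fscn1* in Gfi1+/+ and at 0.0448, 0.0433 and 0.0411 in Gfi1cre/+. Fascin 1 transcripts thus outnumbered those of fascin 2 by a factor of 22.3 to 30.9 in every library. *Pls1* was at 0.205, 0.210 and 0.209 of *Pls3* in Gfi1+/+ and at 0.176, 0.222 and 0.185 in Gfi1cre/+. Plastin 3 was the more abundant, by a factor of 4.51 to 5.69, and the ratio was nearly the same in all Gfi1+/+ libraries. *Eps8l2* was at 1.61, 1.51 and 1.93 of *Eps8* in Gfi1+/+ and at 1.81, 1.60 and 1.81 in Gfi1cre/+, so that here the relative was the more abundant. None of the ratios differed between genotypes beyond the spread of the libraries. The differences in log2 ratio, Gfi1cre/+ minus Gfi1+/+, were 0.21 for *Fscn2/Fscn1* (exact permutation test, two-sided p = 0.2), -0.11 for *Pls1/Pls3* (exact permutation p = 0.4) and 0.05 for *Eps8l2/Eps8* (exact permutation p = 0.9). With a library left out they ran from 0.11 (Gfi1+/+ replicate 2) to 0.32 (Gfi1+/+ replicate 3) for *Fscn2/Fscn1*, from -0.21 (Gfi1cre/+ replicate 2) to -0.040 (Gfi1cre/+ replicate 1) for *Pls1/Pls3* and from -0.023 (Gfi1+/+ replicate 2) to 0.15 (Gfi1+/+ replicate 3) for *Eps8l2/Eps8*.

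**Figure D4:**
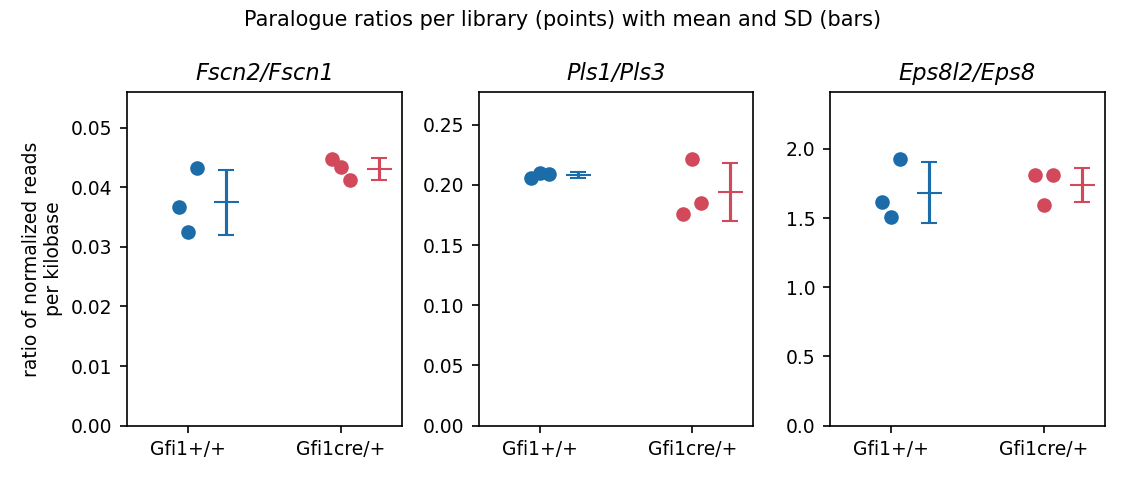
Ratio of normalized reads per kilobase between paralogues in each library (points), with the mean and SD of each genotype (bars, n = 3). The axes start at 0. *Fscn2/Fscn1* lies between 0.0324 and 0.0448, *Pls1/Pls3* between 0.176 and 0.222 and *Eps8l2/Eps8* between 1.51 and 1.93, with overlapping genotypes in each.

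Other relatives of the 10 genes were unevenly abundant. Of 8 such genes 5 were analysed here. *Otoa*, which encodes otoancorin, a relative of stereocilin that anchors the tectorial membrane to non-sensory cells, had 8697 ± 930.5 normalized reads in Gfi1+/+ and 9337 ± 598 in Gfi1cre/+ (SD, n = 3). *Lcp1*, the plastin of white blood cells, had 679 ± 44.7 and 714 ± 40.6. *Espnl*, an espin-like gene of HCs, had 593 ± 47.6 and 616 ± 20.8, and was thus at 111 per kilobase, above *Espn* at 74.1. *Eps8l1* had 254 ± 81.8 and 243.5 ± 13.0, and *Msln*, another relative of stereocilin, had 173 ± 42.1 and 158.5 ± 16.5. Their log2 fold changes ran from -0.10 in *Msln* to 0.11 in *Otoa*, and all overlapped between genotypes.

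Of 33 other genes for proteins of the stereocilia shaft, tip, taper and rootlet, 32 were tested, and the median log2 fold change was 0.00, with 16 below 0 and 16 above. By level per kilobase the list was led by *Gsn* (6798 ± 419, SD, n = 6), which encodes the filament-severing gelsolin, *Cdc42* (3185 ± 116), a switch for actin assembly, and *Gnai2* (3156 ± 114), a G protein subunit, and these are made by most cells of the duct. *Baiap2l2*, which encodes a protein of the tips of the transducing stereocilia, was 1 gene of the list lower in Gfi1cre/+ at an unadjusted p-value under 0.05, against 2.02% of all genes. It stood at 101, 105 and 111 normalized reads in Gfi1+/+ and at 84.4, 86.1 and 90.6 in Gfi1cre/+. Each Gfi1cre/+ library was below each Gfi1+/+ library, but with adjustment over all genes the difference did not pass (log2 fold change -0.28 with standard error 0.119, limma adjusted p = 0.999). No gene of the list was higher at that threshold. Genotypes did not overlap in 3 of the 32, near the 7.52% of all genes, which were *Baiap2l2*, *Capza2* and *Myo1c*. *Capza2*, a subunit of the capping protein of filament ends, had 1576 ± 27.5 in Gfi1+/+ and 1515 ± 22.0 in Gfi1cre/+.

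Of 21 actins and actin turnover factors, 20 were tested and none had p under 0.05 in limma before adjustment. The median log2 fold change was -0.05, with 16 of 20 below 0, beside 50.1% of all genes tested. *Actb*, the cytoplasmic beta-actin gene, had 12294 ± 442 normalized reads per kilobase (SD, n = 6), *Tmsb4x*, which encodes a peptide that binds free actin, 8792 ± 670.1 and *Pfn1*, the profilin 1 gene, 6299 ± 232. *Actg1*, whose gamma-actin is the other actin of stereocilia, had 2241 ± 64.1. *Twf1* and *Evl* were the 2 genes of these 20 whose genotypes did not overlap, near the 7.52% of all genes.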

How the data were processed

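RNA of cochlear ducts was sequenced by the authors as paired ends from TruSeq libraries, aligned to mm10 with TopHat, and uniquely mapped reads were counted on genes with HTSeq-count. The deposited signal, listed for genes covered by at least 40 reads, is called quantile-normalized in the methods. Quantiles differed between libraries, however, and whole reads came out for 100% of values (tolerance 0.0051), so that the deposited signal equals reads over a library size factor. A count of 0 allows up to 3 reads. Annotation, strand setting and versions are not given in the sources used here. Genotype and replicate number linked each column to its sample.

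Genes reaching 40 normalized reads in any library were tested on log2(value + 1) with limma 3.58.1 in R 4.3.3 (genotype only, eBayes with a trend, two-sided, Benjamini-Hochberg adjustment over 14455 genes). This scale understates the change of genes with few reads. Alternatives were edgeR 4.0.16 and DESeq2 1.42.0 on the recovered reads, other pseudocounts and minima, quantile normalization, a replicate block, scaling to *Myo7a* and each library left out. Positions and lengths came from GENCODE for GRCm38, to which 14796 of 14865 identifiers matched. The steps were also run on simulated counts, with the same dispersion in both genotypes and planted changes larger than those of the 10 genes. That run is thus no check on single animals against pools or on small changes. The genes, classes and lists were chosen with earlier results of these data known. Named genes are the 10 genes, their analysed relatives, the 3 most abundant genes per list and those with an unadjusted p-value under 0.05, and *Capza2*, *Myo1c*, *Actg1*, *Twf1*, *Evl*, *Rasd2*, *Des*, *Myh8* and the HC markers shown were added after their values were seen. Same-numbered libraries did not deviate together (r across genes -0.094, 0.11 and -0.033). The methods call the libraries of a genotype independent biological samples.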

Additional observations from a re-analysis of the deposited data

How the results depend on the processing

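Of 148 values of the 10 log2 fold changes under the alternatives, 139 kept their direction. Other minima and the replicate block leave these log2 fold changes as they are by construction, so those values could not change direction. The pseudocounts moved them little, so the count of 139 is no measure of stability. None of the 148 passed the threshold, and the lowest Benjamini-Hochberg adjusted p-value was 0.345 (limma, without Gfi1+/+ replicate 3). Every change of direction but 1 came with a library left out, where the values ran from -0.082 to 0.021 for *Fscn1*, -0.027 to 0.10 for *Pls3*, -0.065 to 0.038 for *Eps8*, -0.50 to 0.017 for *Xirp2*, -0.14 to 0.11 for *Strc*, and -0.023 to 0.15 for the difference in *Eps8l2/Eps8* log2 ratio. The ranges without a change of direction were -0.18 to -0.046 for *Espn*, 0.029 to 0.34 for *Fscn2*, -0.13 to -0.0065 for *Pls1*, 0.0090 to 0.088 for *Eps8l2* and 0.022 to 0.070 for *Triobp*. The exception was *Eps8* scaled to *Myo7a*, at 0.026. Under a minimum mean of 200 *Fscn2* and *Xirp2* were not tested. Over all genes, 4 passed an adjusted p-value of 0.05, against 0 under that minimum (limma), 10 with DESeq2 and 0 to 48 with a library left out. Changes beyond a factor of 2 at unadjusted p under 0.05 numbered 68, against 12 under that minimum, 155 with edgeR, 147 with DESeq2 and 22 to 184 with a library left out. With the replicate number as a block (not a pairing in the labels) the counts were 4 and 69, and the log2 fold changes of the 10 genes were the same values, -0.19 to 0.16. With the union of all exons, a choice made after the data were seen, *Pls1/Pls3* was 0.250 in place of 0.201 and *Eps8l2/Eps8* 2.74 in place of 1.71. The median of the widely expressed genes scaled to *Myo7a* was 0.08. Depth limits *Xirp2* and *Fscn2* most, at 25 to 93 reads per library.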

Other observations

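Among 10357 other genes averaging 200 normalized reads or more, the 5 whose profile over the 6 libraries was most like the mean profile of *Espn*, *Fscn2*, *Xirp2* and *Strc* were *Aass*, *Inpp5j*, *Rpusd3*, *Aph1c* and *Nkd2*, with Pearson's r from 0.982 to 0.997. These 5 were picked as the highest of the 10357 genes, of which 116 had r above 0.9. The correlations describe 6 libraries and rest largely on Gfi1+/+ replicate 2. There the mean profile was -0.31 on the log2 scale, against -0.04 to 0.20 elsewhere. The 4 genes did not share this alike, with -0.53 in *Xirp2*, -0.35 in *Fscn2*, -0.33 in *Strc* and -0.03 in *Espn* in that library. *Inpp5j*, a phosphatase gene, stood at 1717, 1217 and 1819.6 normalized reads in Gfi1+/+ replicates 1 to 3, and at 1469 to 1575 in Gfi1cre/+.

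Between the 10 genes, the 45 pairwise correlations over the 6 libraries ran from -0.99 for *Pls1* with *Eps8l2* to 0.71 for *Pls1* with *Eps8*. *Fscn1* and *Pls3* had r = -0.94. These pairs were picked as the extremes of 45 and are given as descriptions of small deviations in libraries that share tissue and normalization.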
